A study of Mus musculus with 9 samples.

Results

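Interferon-gamma inducible GTPases were followed here in mouse LSK cells, the lineage-negative bone marrow cells that carry Sca-1 and Kit and that hold the haematopoietic stem cells and multipotent progenitors. The set holds 8 named genes, Gbp2, Gbp3, Gbp6, Irgm1, Irgm2, Igtp, Iigp1 and Tgtp1, and takes every array probe whose transcript accession RefSeq assigns to one of them. This gave 11 of the 55681 probes on the array, and all 8 genes were among the 13118 genes that could be tested. The R882H group was transduced with DNMT3A R882H, the WT group with wild-type DNMT3A and the EV group with empty vector, and each had 3 samples. In all groups the cells were GFP-labelled LSK cells of C57BL/6 background, sorted again from transplanted mice. DNMT3A methylates DNA that carried no methyl mark before, and the R882H change recurs in the enzyme in acute myeloid leukaemia. The protein was delivered by a vector on top of the cells' own Dnmt3a, and the sources used here do not give the age of the mice. Nothing in the labels says that replicates came from separate animals, so p-values measure only how far these samples spread, and that may be technical.

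Interferon-gamma binds a receptor whose kinases Jak1 and Jak2 pass the signal on to genes with gamma-activated sites in their promoters, among them that of the transcription factor Irf1. Among the genes most strongly induced are 2 GTPase families, the guanylate-binding proteins (Gbp) and the immunity-related GTPases (Irgm1, Irgm2, Igtp, Iigp1 and Tgtp1). They collect on the vacuoles of intracellular parasites and bacteria and break them open. Interferon-gamma also drives quiescent haematopoietic stem cells into division, and mice without Irgm1 have overactive, poorly engrafting stem cells.

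RNA was measured on 1-colour Agilent arrays after amplification from 3.67 ng of total RNA. Values below are log2 signals of a probe relative to the 75th percentile of its array, so that 0 is the level of that percentile, and a level is compared only between arrays and never between probes. Between 53.4% and 64.8% of probes were well above background per array, and arrays correlated with each other at 0.954 to 0.984 over the genes tested. The column names of the deposited value table and the labels of the scanner output disagreed. By those labels, 2 of the table's 9 columns held the array of their name, 7 held another array, and 4 an array of another group. Groups were taken here from the labels attached to the scanner output. Which naming is right was not settled by these data, so every group comparison rests on those labels. The value table read by its names is given beside part of the results it changes. The arrays lay on 3 slides. The 3 EV arrays shared a slide with WT replicate 1, R882H replicates 1 and 2 shared another with WT replicates 2 and 3, and R882H replicate 3 was on the remaining one. No slide held both R882H and EV arrays, so with slide as a block these groups are linked through the WT arrays alone. On the EV side that link is WT replicate 1. R882H replicate 3, alone on its slide, carries no weight in a difference from that fit. EV replicate 3 stood apart: the log2 of the summed signal of the 7 neutrophil markers on the array was 4.52 there and at most 2.30 on the other 8 arrays. S100a8 (3.24) and S100a9 (3.66) carried that sum, while Camp, Cxcr2, Mmp8, Ngp and Ltf were not highest on that array. Values without EV replicate 3 are therefore given beside many of the results against EV that it moves.

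The promoters are shown because the genes respond to a shared signal whose factors bind known motifs. RefSeq promoter windows, 250 bases before to 50 after the annotated start (GRCm38.p6), were given for 6 of the 8 genes, with 7 windows. Both strands were searched for GAAANNGAAA, the core of the interferon-stimulated response element bound by interferon regulatory factors, and for TTCNNNGAA, the gamma-activated site. The first motif was found in 6 of the 7 windows and in each of the 6 genes, against 1131 of all 32851 windows (3.44%). The second was found in 3 of the 7, against 2726 of all windows (8.3%). In the following stretches, written 5′ to 3′ on the gene's strand, capitals mark these matches. In Gbp2 and Gbp3 the response element lies on the opposite strand and reads as its reverse complement, and in Gbp3 and Irgm1 a pair of its matches overlap.
Gbp2, chr3:142620579-142620638, plus strand: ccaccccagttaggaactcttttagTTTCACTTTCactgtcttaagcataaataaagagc
Gbp3, chr3:142559974-142560033, plus strand: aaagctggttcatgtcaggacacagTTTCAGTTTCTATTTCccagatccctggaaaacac
Irgm1, chr11:48871421-48871480, minus strand: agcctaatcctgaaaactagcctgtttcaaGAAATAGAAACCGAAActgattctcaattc
Irgm2, chr11:58214888-58214947, plus strand: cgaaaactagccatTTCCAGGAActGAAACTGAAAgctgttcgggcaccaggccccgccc
Igtp, chr11:58199496-58199555, plus strand: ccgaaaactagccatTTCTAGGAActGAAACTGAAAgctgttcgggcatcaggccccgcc
Tgtp1, chr11:48992289-48992348, minus strand: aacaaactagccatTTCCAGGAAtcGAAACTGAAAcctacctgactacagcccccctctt

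In Irgm2, Igtp and Tgtp1 the gamma-activated site stands just upstream of the response element, and the matched letters of the response element are the same in all 3. The Igtp and Irgm2 windows were alike over most of their length, with 244 of 270 aligned columns identical (90.4%). The first base of the response element matches lay between 24 bases before the start, in Irgm1, and 77 bases before it, in Tgtp1. The matches describe these windows and say nothing of binding in LSK cells.

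**Figure D1:**
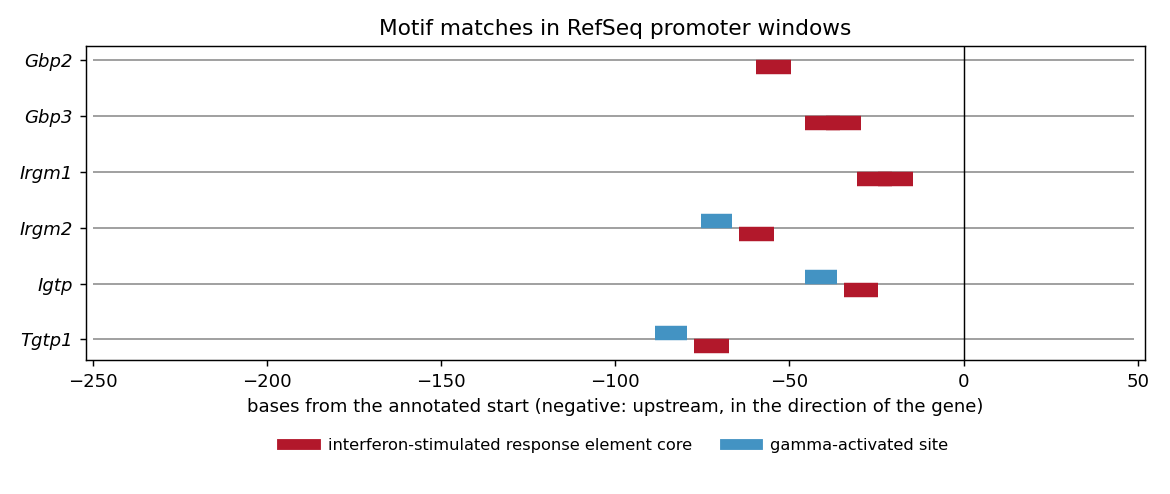
Positions of the 2 motifs in the promoter windows of 6 genes, with distance from the annotated start in bases on the horizontal axis. Each gene has its response element (red) within 77 bases of the start, and Irgm2, Igtp and Tgtp1 also have a gamma-activated site (blue) directly upstream of it.

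Gbp2, a large GTPase of the chromosome 3 cluster that is recruited to parasite vacuoles, stood highest with R882H. Its level was 0.30, 0.70 and 0.24 in the 3 R882H samples, -0.20, -0.80 and 0.12 in the WT samples, and -0.66, -0.35 and -0.99 in the EV samples. Each R882H sample lay above each WT and each EV sample, while WT and EV overlapped. R882H exceeded EV by 1.08 ± 0.27 log2 units (SE, 2.11-fold), and its limma p-value after Benjamini-Hochberg adjustment over the 13118 genes was 0.432, so the difference did not pass 0.05. It was 0.91 without EV replicate 3 and 0.75 in the value table read by its names.

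Gbp3, another GTPase of that cluster, was the member that ran the other way. It read 0.48, 0.31 and 1.04 in R882H, 0.86, 0.95 and 1.17 in WT, and 1.11, 0.94 and 1.34 in EV. R882H replicates 1 and 2 were the lowest of all arrays, and R882H replicate 3 lay inside the EV range. The R882H minus EV difference was -0.52 ± 0.22 log2 units (SE, limma adjusted p = 0.529), and without EV replicate 3 it was -0.42 and its unadjusted p was no longer under 0.05. With slide as a block it was -0.93.

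Gbp6, from the chromosome 5 cluster, was dim and is the least certain member. Its brighter probe was well above background on 3 R882H, 2 WT and 1 EV arrays, with values of -2.05, -2.35 and -2.37 in R882H, -2.83, -2.95 and -4.32 in WT, and -2.18, -4.69 and -4.66 in EV. EV replicate 1 was as bright as the R882H arrays and the other EV arrays were the lowest of all. The R882H minus EV difference was 1.59 ± 0.66 log2 units (SE, limma adjusted p = 0.532). Without EV replicate 1 it was 2.42, without EV replicate 3 it was 1.18, and with slide as a block 2.44 ± 1.38 (SE). It was 0.25 after another background correction (normexp) and 0.21 in the value table. Gbp6 passed the detection filter through the R882H arrays alone, where it is brightest, so the counts for each comparison are also given over the other 7 members. Its second probe was well above background on 2 R882H, 2 WT and 0 EV arrays. It read -2.7, -2.5 and -4.1 in R882H, -2.1, -3.1 and -5.9 in WT, and -3.8, -4.1 and -5.5 in EV. The groups overlapped, and R882H replicate 3 was itself dim, so no bound on the difference is given.

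**Figure D2:**
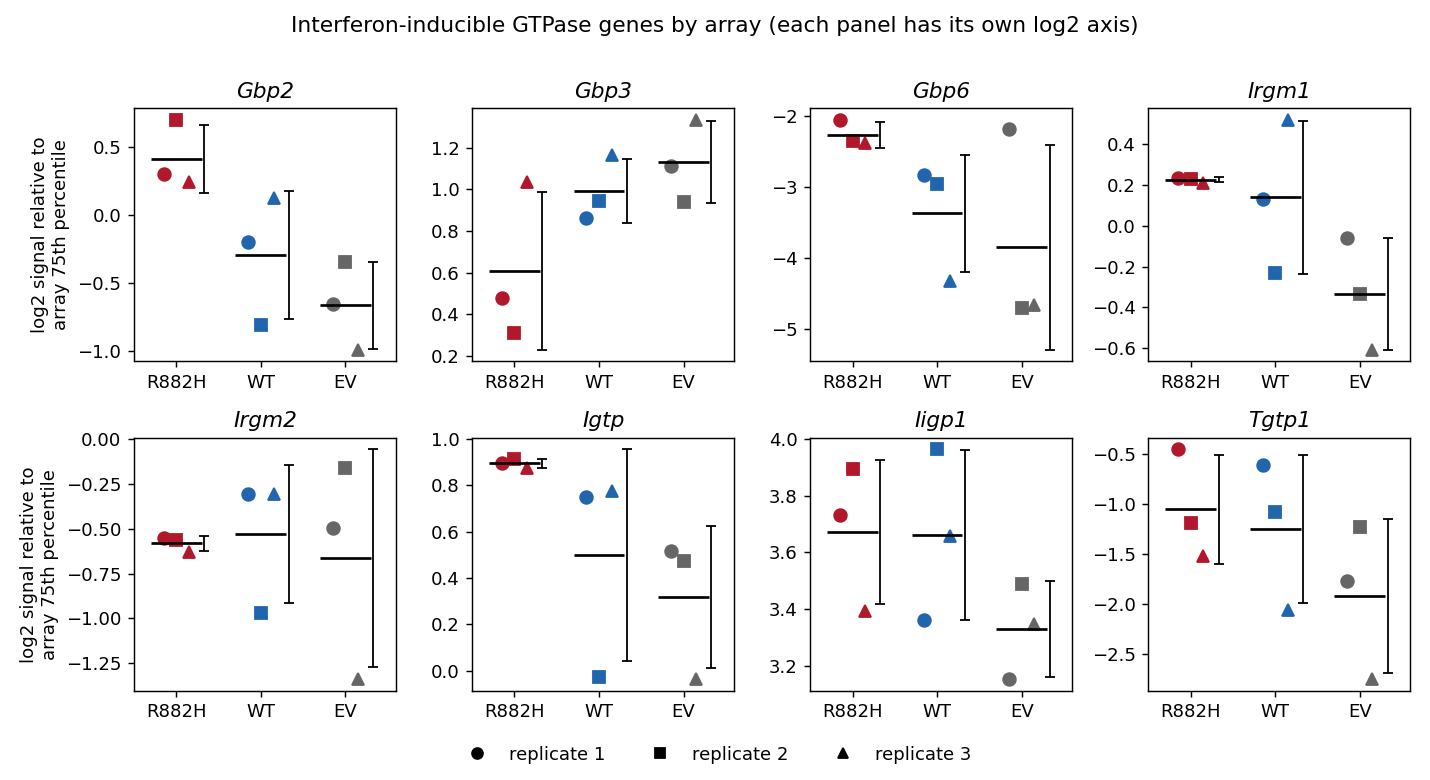
Log2 signal, set against the 75th percentile of each array, for the main probe of each gene (vertical axis, its own range in each panel), by group on the horizontal axis. Symbols are the 3 replicates, horizontal bars group means and whiskers SD (n = 3). In Gbp2, Irgm1 and Igtp every R882H sample lies above every EV sample, and in Gbp3 the R882H mean is the lowest.

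The 3 genes Irgm1, Irgm2 and Igtp (also called Irgm3) encode regulators, GTPases that sit on the cell's own membranes and keep the effector GTPases switched off there. Irgm1 read 0.23, 0.23 and 0.21 in R882H, 0.13, -0.23 and 0.52 in WT, and -0.06, -0.33 and -0.61 in EV. The 3 R882H samples were almost level and above all EV samples, whereas the WT samples spread on both sides of them. R882H minus EV was 0.56 ± 0.22 log2 units (SE, 1.47-fold, limma adjusted p = 0.521), and 0.42 without EV replicate 3. A second, dimmer Irgm1 probe read -0.92, -1.77 and -1.53 in R882H, -1.66, -2.47 and -1.25 in WT, and -1.85, -2.13 and -3.12 in EV. It separated R882H from EV as well, by 0.96 ± 0.41 log2 units (SE, adjusted p = 0.538 in the limma fit of all detected probes).

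Igtp was printed in 10 spots per array, and the median SD between its spots was 0.055. Its level was 0.89, 0.91 and 0.87 in R882H, 0.75, -0.03 and 0.77 in WT, and 0.52, 0.47 and -0.04 in EV. All R882H samples lay above all WT and all EV samples, and WT replicate 2 and EV replicate 3 were about equally low. R882H minus EV was 0.58 ± 0.25 log2 units (SE, 1.49-fold, limma adjusted p = 0.540), 0.40 without EV replicate 3 and 0.27 in the value table.

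Irgm2, whose promoter window nearly matched that of Igtp, showed no such order. It read -0.55, -0.56 and -0.63 in R882H, -0.30, -0.97 and -0.31 in WT, and -0.50, -0.16 and -1.34 in EV. The R882H samples were again nearly level, but they lay within the range of both other groups. R882H minus EV was 0.08 log2 units with a 95% interval of -0.61 to 0.78, and -0.25 without EV replicate 3.

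The remaining 2 genes encode effectors that load onto vacuoles in their active form. Iigp1 (Irga6) read 3.73, 3.89 and 3.40 in R882H, 3.36, 3.96 and 3.66 in WT, and 3.15, 3.49 and 3.35 in EV. The ranges of the 3 groups overlapped, and R882H minus EV was 0.34 ± 0.21 log2 units (SE, limma adjusted p = 0.598). With slide as a block this difference was 0.03. A second Iigp1 probe, well above background on 3 R882H, 3 WT and 2 EV arrays, read -2.10, -2.74 and -1.48 in R882H, -2.68, -2.61 and -2.71 in WT, and -2.79, -3.28 and -3.18 in EV. There all EV samples lay below all R882H samples and all WT samples, and R882H minus EV was 0.98 ± 0.30 log2 units (SE, adjusted p = 0.460 in the fit of all detected probes). The 2 probes thus gave the same direction and different sizes.

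Tgtp1 (Irgb6) read -0.45, -1.18 and -1.52 in R882H, -0.61, -1.08 and -2.06 in WT, and -1.77, -1.23 and -2.76 in EV. The groups overlapped, and R882H minus EV was 0.87 ± 0.48 log2 units (SE, limma adjusted p = 0.579). This value was 0.45 without EV replicate 3, 2.06 ± 0.87 (SE) with slide as a block and -0.39 in the value table. Tgtp1 has a near-identical neighbour, Tgtp2, a name that RefSeq also lists as a synonym of Tgtp1, so which copy each probe reads is uncertain.

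The comparison of R882H with EV asks what the mutant enzyme changes relative to the vector. Of the 8 genes, 7 had a higher mean in R882H, with a median difference of 0.57 log2 units, against a median of -0.02 over all genes tested, of which 48.0% were higher. No member passed an adjusted p of 0.05 in limma, as was true of all genes tested (0.0%). At an unadjusted p under 0.05 stood 5 of the 8 members, against 9.03% of all genes: Gbp2, Gbp6, Irgm1 and Igtp higher (5.56% of all genes) and Gbp3 lower (3.47%). Groups that did not overlap, with R882H above EV, were found for 3 of the 8 (Gbp2, Irgm1 and Igtp) and for 9.51% of all genes. Without Gbp6, 6 of 7 were higher with a median of 0.56, 4 of 7 had an unadjusted p under 0.05 and 3 of 7 had R882H above EV with no overlap. Without EV replicate 3 the median was 0.41, 6 of 8 were higher and 1 of them, Gbp2, kept an unadjusted p under 0.05. With slide as a block the median was 0.76, 7 of 8 were higher and 1, Gbp3, had an unadjusted p under 0.05. The value table read by its names gave a median of 0.24, with 5 of 8 higher and 0 at that level. In bulk samples, fewer cells of a type and less RNA per cell cannot be told apart.

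**Figure D3:**
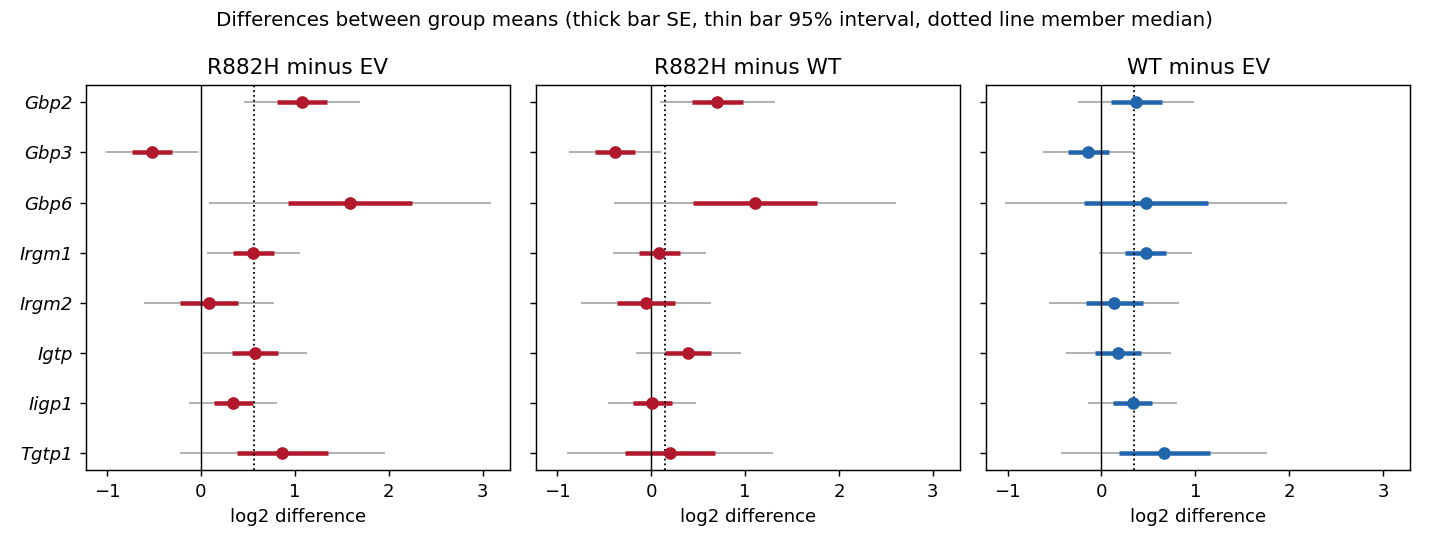
Log2 differences between group means for each gene (horizontal axis) in the 3 comparisons, with SE as thick bars, 95% intervals as thin bars and the median of the 8 genes as a dotted line. Against EV, 7 genes lie to the right of 0 with R882H and also with WT, and Gbp3 lies to the left in all 3 comparisons.

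Against WT, which asks what the substitution adds to forced expression of the enzyme, 6 of 8 members had a higher mean in R882H. The median over the 8 genes was 0.14 log2 units, against -0.01 over all genes (48.3% higher). Gbp2 was higher by 0.71 ± 0.27 log2 units (SE, limma adjusted p = 0.578) and was the 1 member of 8 with an unadjusted p under 0.05, against 8.01% of all genes. Groups did not overlap, with R882H above WT, in Gbp2, Igtp (0.40 ± 0.25) and Gbp6 (1.11 ± 0.66), 3 of 8 members against 6.79% of all genes. Without Gbp6 these counts were 5 of 7 higher, with a median of 0.086, 1 of 7 with an unadjusted p under 0.05 and 2 of 7 with no overlap. Gbp3 differed by -0.38 ± 0.22. The values for Irgm1, Irgm2, Iigp1 and Tgtp1 lay between -0.05 and 0.20, with the widest 95% interval, for Tgtp1, running from -0.90 to 1.30. On the slide that held 2 arrays of each of these groups, the differences were 0.84 for Gbp2, 1.43 for Gbp6, 0.53 for Igtp, 0.75 for Tgtp1 and -0.66 for Gbp3, with a median over the members of 0.31. In the value table the median over the 8 was 0.33 with 5 of 8 higher. There 2 of 8 had an unadjusted limma p under 0.05, against 320 of 13118 genes.

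WT exceeded EV in 7 of the 8 genes as well, with a median of 0.35 log2 units, against 0.01 over all genes (51.7% higher). This comparison and that of R882H with EV share the EV samples, so their directions are not independent. The highest member value, for Tgtp1, was 0.67 ± 0.48 log2 units, and Irgm1 at 0.47 ± 0.22 had the smallest limma p (adjusted p = 0.840). At an unadjusted p under 0.05 there were 0 of 8 members, against 5.95% of all genes, and 0 of 8 had groups that did not overlap, against 10.1%. Without Gbp6, 6 of 7 were higher with a median of 0.33, and the other counts were 0 of 7. Without EV replicate 3 the median over the 8 was 0.14 with 6 of 8 higher. On the slide that held WT replicate 1 and the 3 EV arrays it was 0.45 with 7 of 8 higher. In the value table it was -0.11 with 2 of 8 higher.

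Across the 9 arrays, the members were set against their own means to see which arrays carried the order. The median deviation over the 8 genes was 0.27, 0.28 and 0.16 in R882H, 0.15, -0.10 and 0.23 in WT, and -0.06, -0.08 and -0.68 in EV. R882H replicates 1 and 2 were the highest arrays and EV replicate 3 by far the lowest. EV replicate 3 was the lowest array for 5 of the 8 genes (Gbp2, Irgm1, Irgm2, Igtp and Tgtp1) and the highest for Gbp3. Its high S100a8 and S100a9 signal, given above, went with these low values, and the part of neutrophils in the result was not tested.

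**Figure D4:**
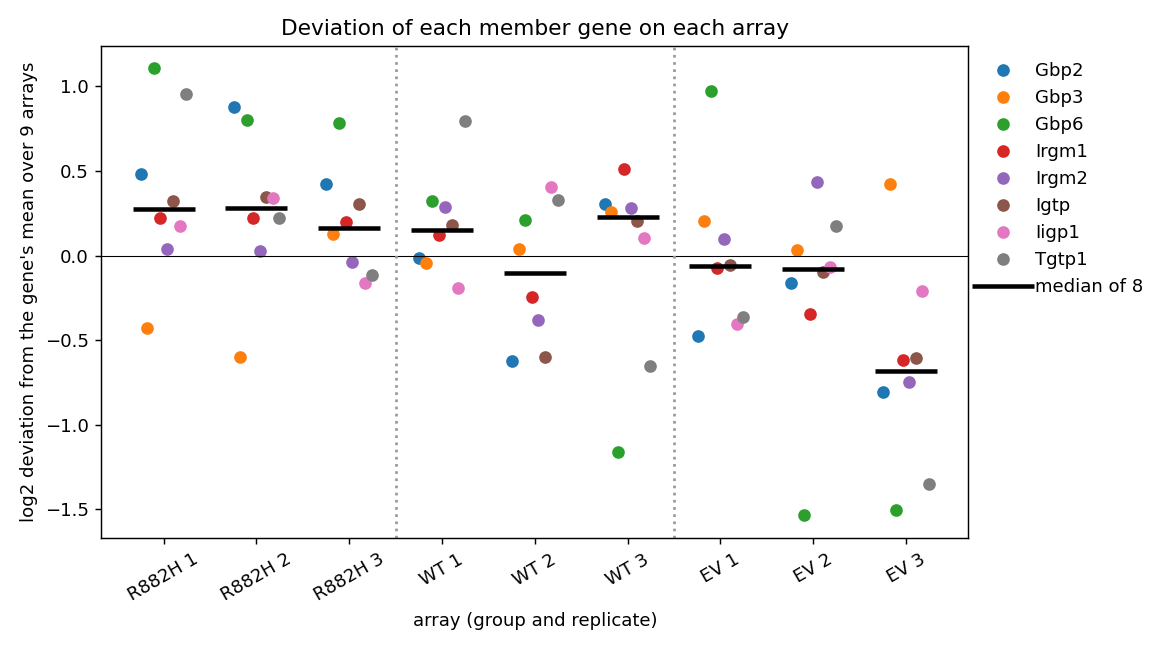
Deviation of each gene from its own mean over 9 arrays (log2, vertical axis), by array on the horizontal axis, with the median of the 8 genes as a black bar. The medians of the R882H arrays lie between 0.16 and 0.28, and that of EV replicate 3 lies at -0.68.

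Over the 28 gene pairs the correlation across the 9 arrays had a median Pearson r of 0.38, and it was above 0 in 20 pairs. These arrays share groups and slides, so the values only describe how the genes ran together. Gbp2, Igtp and Irgm1 ran most closely, at 0.91 for Gbp2 with Igtp, 0.85 for Irgm1 with Igtp and 0.81 for Gbp2 with Irgm1. Iigp1 followed the regulators less closely, with 0.03 for Igtp, -0.09 for Irgm2 and 0.25 for Irgm1. By rank (Spearman) these were 0.35, -0.15 and 0.38. Gbp3 had a negative r with all 7 other members, from -0.29 with Irgm2 to -0.74 with Tgtp1.

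Outside the set, the genes whose pattern was most like the mean of the 7 members detected on all 9 arrays were Cmtm8 (r = 0.930), Lamc1, a laminin chain (0.924), Ifi47 (0.918), Olfr469 (0.915), Bpifa2 (0.912), Mndal (0.909), Gcgr (0.908) and Mirt1 (0.906). Ifi47 is itself an interferon-inducible GTPase of the immunity-related family and Mndal a member of the interferon-inducible p200 family. Mirt1 read -0.03, -0.04 and -1.02 in R882H, -0.63, -1.48 and -0.59 in WT, and -1.52, -1.88 and -2.65 in EV. Its R882H samples all lay above its EV samples, by 1.66 ± 0.39 log2 units on average (SE, limma adjusted p = 0.387). The Mirt1 difference was 1.34 without EV replicate 3 and 0.78 in the value table. These 8 genes were picked for their likeness out of 13118 genes, and their order rests on 9 arrays. The mean of the 7 members, each scaled to its own SD, was -1.17 on EV replicate 3 and -0.34 on the next lowest array. The likeness therefore leans on EV replicate 3. Lamc1 differed between R882H and EV by 0.94, and by 0.34 without EV replicate 3. Bpifa2 and Gcgr were well above background on only 7 and 6 arrays.

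Interferon-inducible GTPases outside the set were mostly higher in R882H than in EV too. Of 18 on the array 14 were tested, and 13 of these had a higher mean in R882H, against 48.0% of all genes. Their median was 0.36 log2 units. None passed the adjusted p of 0.05 in limma, and 5 of 14 had an unadjusted p under 0.05, against 9.03% of all genes. All 5 were higher: Gm4951, Tgtp2, and, named after their values were seen, Gbp5, Gm12250 and Gm4841. Gm4841 was well above background on the 3 R882H arrays and on none of the others, and was at least 1.35-fold brighter in R882H than in EV. Gbp8, on 3 R882H, 2 WT and 0 EV arrays, also passed the detection filter through R882H alone. Without these 2 genes, 11 of 12 were higher with a median of 0.36, and 4 of 12 had an unadjusted p under 0.05. Over all 14, without EV replicate 3 the count was again 13 of 14, with a median of 0.40, and in the value table it was 11 of 14, with 0.17. In WT against EV 14 of 14 were higher (median 0.26), against 51.7% of all genes. The count was 12 of 14 without EV replicate 3 (median 0.17) and 6 of 14 in the value table (median -0.036). In R882H against WT 7 of 14 were higher (median 0.02), near the 48.3% of all genes, and 10 of 14 in the value table (median 0.33). Without Gm4841 and Gbp8 the counts were 12 of 12 higher in WT than in EV and 6 of 12 higher in R882H than in WT.

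Tgtp2, the copy next to Tgtp1, read 3.30, 3.16 and 3.20 in R882H, 2.86, 2.53 and 2.76 in WT, and 2.55, 2.38 and 1.70 in EV. R882H stood above every WT and EV sample, and R882H minus EV was 1.01 ± 0.22 log2 units (SE, 2.02-fold, limma adjusted p = 0.333). It was 0.76 without EV replicate 3 and 0.44 in the value table. Gm4951, another gene of the immunity-related GTPase family, read -0.81, -1.12 and -0.67 in R882H, -1.10, -1.73 and -1.39 in WT, and -1.57, -2.40 and -2.58 in EV. Its R882H samples all exceeded its EV samples, by 1.32 ± 0.29 log2 units on average (SE, limma adjusted p = 0.333). This difference was 1.12 without EV replicate 3 and 0.62 in the value table. Tgtp2 and Gm4951 both had a smaller unadjusted p than any of the 8 members.

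Upstream of the GTPases, the interferon-gamma gene itself, Ifng, was well above background on 2 of 9 arrays and could not be tested. The receptor chains Ifngr1 and Ifngr2 differed between R882H and EV by -0.11 and -0.12 log2 units, and the kinases Jak1 and Jak2 by 0.20 and 0.32. Irf1, the factor that binds the response element, read 3.61, 3.72 and 4.25 in R882H, 3.90, 3.62 and 3.23 in WT, and 2.93, 3.53 and 2.86 in EV. All R882H samples lay above all EV samples, by 0.75 ± 0.27 log2 units on average (SE, limma adjusted p = 0.521). The Irf1 difference was 0.63 without EV replicate 3 and 0.27 in the value table. Socs3, a feedback inhibitor of cytokine receptors, was 1.22 ± 0.43 log2 units higher (SE, limma adjusted p = 0.521). Irf8, a factor of myeloid and lymphoid fate, differed by -0.37 ± 0.32 from EV and by -1.003 ± 0.32 from WT (limma adjusted p = 0.554), and Ciita, the master regulator of major histocompatibility class II genes, by 0.13 from EV. Over all genes tested, 48.0% were higher in R882H than in EV and 9.03% had an unadjusted p under 0.05. Over the 16 genes of this signal path that were tested, 11 were higher, with a median of 0.21. At an unadjusted p under 0.05 were 2 of the 16, Irf1 and Socs3. Without EV replicate 3 they were 12 of 16, a median of 0.14 and 1 higher gene at that level, Socs3.

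Targets of interferon-gamma outside the GTPases included antigen presentation genes and chemokines. Of 25 tested, 17 were higher in R882H than in EV, against 48.0% of all genes, with a median of 0.13 log2 units. An unadjusted p under 0.05 was found for 3 of 25, against 9.03% of all genes. They were Serpina3f, Cxcl9 and, named after its value was seen, H2-Eb1, a major histocompatibility class II chain. When arrays were scaled to their median signal, which set the median of all genes at -0.18, the count of higher genes was 10 of 25 and the median -0.03. Without EV replicate 3 the count and median were 15 of 25 and 0.071. In WT against EV 8 of 25 were higher (median -0.15), against 51.7% of all genes, unlike the GTPases. In R882H against WT 18 of 25 were higher (median 0.29), against 48.3% of all genes. Serpina3f, a protease inhibitor, read 1.74, 1.64 and 1.82 in R882H, 1.15, 1.26 and 1.54 in WT, and 0.82, 1.004 and 0.66 in EV. The 3 groups did not overlap, with R882H highest and EV lowest, and R882H minus EV was 0.91 ± 0.16 log2 units (SE, 1.88-fold, limma adjusted p = 0.302). Cxcl9, a T cell attractant typical of interferon-gamma, differed by 0.51 ± 0.16 (limma adjusted p = 0.505).

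Genes stimulated by type I interferons, which use a different receptor, had a median of 0.35 log2 units in R882H against EV. Of the 19 tested, 16 were higher, against 48.0% of all genes. Ifit1 and Ifi44, both higher in R882H, passed the detection filter through R882H alone, and counts without them were not made. Isg15, a ubiquitin-like protein, differed by 0.60 ± 0.22 (limma adjusted p = 0.521) and Oas2, a sensor of double-stranded RNA, by 1.47 ± 0.63 (limma adjusted p = 0.540). These 2 alone of the 19 had an unadjusted p under 0.05, near the 9.03% of all genes. Without EV replicate 3 Oas2 differed by 0.75, the count of higher genes was 12 of 19 and the median 0.16. In the value table the count and median were 5 of 19 and -0.16. Partners that load the GTPases onto vacuoles, mostly the autophagy conjugation machinery, had a median of 0.05 with 8 of 14 higher, near the 48.0% of all genes. After scaling to the array median, the median was -0.11 with 5 of 14 higher. Atg16l1 differed by 0.39 ± 0.16 (limma adjusted p = 0.523) and Gabarapl2, a ubiquitin-like protein of that machinery, by 0.34 ± 0.16 (limma adjusted p = 0.558).

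**Figure D5:**
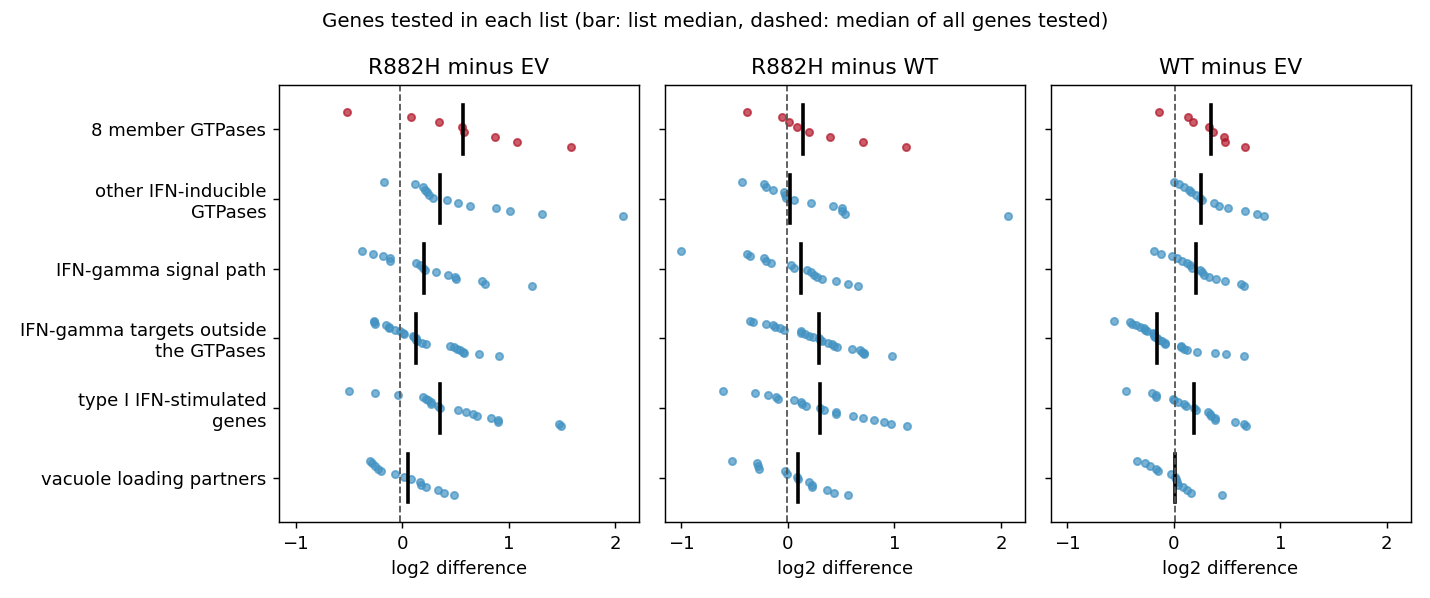
Log2 differences of every tested gene in each list (horizontal axis) for the 3 comparisons, with list medians as black bars and the median of all genes tested as a dashed line. Against EV the R882H medians are 0.57 for the 8 members, 0.36 for the other GTPases and 0.05 for the vacuole loading partners.

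The labelled cell type was checked against markers. All 7 LSK markers were detected, 6 of them, Kit and Cd34 included, on all 9 arrays, and Slamf1 on 6 of 9. Slamf1, on 3 R882H, 1 WT and 2 EV arrays, passed the detection filter through R882H alone. The log2 summed level of the 7 markers ran from 6.05 to 6.30 in R882H, 5.85 to 6.43 in WT and 5.56 to 6.35 in EV. Cd34, which has the largest signal in that sum, averaged 5.20, 5.44 and 5.14 in these groups. All 7 had a higher mean in R882H than in EV, against 48.0% of all genes. Their median was 0.26 log2 units, and Procr, a stem cell surface receptor, differed by 0.78 ± 0.45. Without EV replicate 3 the count of higher markers was 4 of 7, the median 0.16 and the Procr difference 0.36. In the value table the median was -0.21, with 1 of 7 higher. Their part in the GTPase values was not tested.

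Markers of other cell types that could be present were read on the same arrays, and each sum below runs over all markers of that type on the array, whether or not they could be tested. Signals were summed before log2 was taken, so the probe with the largest signal weighs most in a sum. Csf1r alone averaged 4.26, 4.14 and 4.26 in R882H, WT and EV, close to the macrophage sums. Nkg7 alone averaged 5.22, 5.57 and 5.68, close to the T and NK cell sums. Of 8 macrophage markers on the array 5 were tested, and the log2 summed level of the 8 was 4.32 to 4.43 in R882H, 4.14 to 4.38 in WT and 4.26 to 4.42 in EV, with Mrc1 well above background on 0 arrays and Csf1r on all 9. Marco and Adgre1, the 2 with the smallest p, differed between R882H and EV by 0.66 ± 0.41 and 0.38 ± 0.48. Another tested Adgre1 probe had the opposite sign. Of the 5 tested macrophage markers 3 were higher, with a median of 0.095, against 48.0% of all genes. C1qa (-0.13) and Csf1r (-0.003) were lower. Of 9 T and NK cell markers 4 were tested, and the 9 summed to 5.38 to 5.54 in R882H, 5.53 to 6.08 in WT and 5.61 to 6.09 in EV, with Cd3d and Cd8a on 0 arrays. Cd4 differed by 0.38 ± 0.14 and Nkg7 by -0.46 ± 0.21 between R882H and EV.

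Of 7 dendritic cell markers 1, Siglech, was tested, and the 7 summed to 4.58 to 4.81 in R882H, 4.68 to 4.88 in WT and 4.56 to 4.62 in EV, while Batf3 was well above background on 0 arrays. Siglech alone averaged 4.69, 4.74 and 4.58 in R882H, WT and EV, so these sums are nearly its own reading. Of 5 B cell markers 3 were tested, and the 5 had sums of 0.54 to 1.38 in R882H, 0.33 to 1.09 in WT and 0.48 to 0.77 in EV, and Ms4a1 on 0 arrays. Cd79a was well above background on 3 R882H, 2 WT and 0 EV arrays, so it passed the detection filter through R882H alone. It was at least 5.41-fold brighter in R882H than in EV (limma adjusted p = 0.302), and Pax5 differed by 0.40 ± 0.26. Cd79b, well above background on all 9 arrays, went the other way, by -0.17 ± 0.30. Thus 2 of the 3 tested B cell markers were higher in R882H than in EV, against 48.0% of all genes.

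Of 7 neutrophil markers 3 were tested, and the 7 had sums of -0.26 to 0.51 in R882H, -0.23 to 2.30 in WT and 0.25 to 4.52 in EV, and Ltf on 0 arrays. S100a9 differed by -2.38 ± 1.32 and Cxcr2 by -0.82 ± 0.36 between R882H and EV, and by -0.83 and -0.78 without EV replicate 3. Camp differed by 0.06 ± 0.26, so 1 of the 3 tested neutrophil markers was higher. Of 7 endothelial markers, several of which stem cells share, 6 were tested, and the 7 had sums of 2.99 to 3.30 in R882H, 2.90 to 3.09 in WT and 2.77 to 2.96 in EV, and Cdh5 on 0 arrays. Vwf differed by 1.35 ± 0.60 and Emcn by 1.64 ± 0.80, and by 0.95 and 0.68 without EV replicate 3. Pecam1 was lower, by -0.31 ± 0.24, while Kdr (0.21) and Plvap (0.28) differed less than Vwf and Emcn. Of the 6 tested endothelial markers 5 were higher in R882H than in EV, against 48.0% of all genes. Emcn, on 3 R882H, 2 WT and 2 EV arrays, passed the detection filter through R882H alone. The part of these cell types in the GTPase values was not tested.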

How the data were processed

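Agilent Feature Extraction 10.10.1.1 quantified the scans on array design 028005, per the file headers. The authors deposited a processed intensity per spot, on a linear scale, from which that software had subtracted background, per the file headers. Calls (0 or 1) mark spots as saturated, as outliers or as well above background. The deposited value table holds log2 values; the sources used here do not say how the authors made it, and it served as an alternative. Its values matched log2 intensities from which an array percentile (75) and the median of each probe had been taken.

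Control and outlier spots were left out (154 to 184 outliers per array, 0 saturated). Processed intensity was taken to log2, the 75th percentile subtracted and spots of a probe averaged. Accessions were matched to symbols through RefSeq (GRCm38.p6). A probe was kept if 1 group or more had it well above background on its 3 arrays, and the brightest per symbol was used. Groups were compared with limma 3.58.1 in R 4.3.3 (lmFit and eBayes on all 9 arrays, 6 residual and 2.81 prior degrees of freedom), with Benjamini-Hochberg adjustment over 13118 genes. The median SE of a difference was 0.232, and precision is limited by the number of arrays. A probe dim on a whole group has only a bound there, computed from the lowest signal well above background. The fit was tested on simulated data.

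The members and lists were chosen with earlier results of these data known. Named genes were all members, the 2 tested genes of smallest p in R882H against EV of each other list, 9 genes of the signal path, and the 8 non-members most like the members. A few of these genes are not reported here. Same-numbered replicates were correlated in their deviations from group means. WT and EV gave 0.116, 0.223 and 0.326, all over 0.1, so these numbers were taken to pair the samples, from the data alone. The main fit did not use this pairing, which entered only as an alternative with the replicate number as a block. R882H and EV gave 0.0885, 0.198 and 0.279, and R882H and WT 0.0713, 0.137 and 0.239. Alternatives covered background correction (normexp with offset 50 on median signals, since mean signals were not among the columns used here), scaling, filters, probe choice, blocks, single-array omission and the value table. Counts without Gbp6, and without Gm4841 and Gbp8, were added after seeing the data.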

Additional observations from a re-analysis of the deposited data

How the results depend on the processing

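No member passed an adjusted p of 0.05 under any of the settings run, and the smallest adjusted p among them was 0.294 in R882H against EV. Over all genes limma called 0 in each comparison, with 1184, 1051 and 780 at an unadjusted p under 0.05 in R882H against EV, R882H against WT and WT against EV. Testing every detected probe called 1 in R882H against EV and 6 in WT against EV. The first unadjusted count was 763 with slide as a block, 614 in the value table, 707 without R882H replicate 1, 673 without R882H replicate 2 and 1787 with the replicate number as a block. The second was 320 in the value table, and the third 1283 without WT replicate 3. With the replicate block 0 members were called in each comparison, as without it, and it changed no call. It moved unadjusted limma p-values in R882H against EV, from 0.106 to 0.015 for Tgtp1 and from 0.045 to 0.057 for Igtp. With it 5 of 8 members again stood under 0.05, with Tgtp1 in place of Igtp. Scaling to the array median moved the median of all genes to -0.18 in R882H against EV, where the member median was 0.40. Each column of the value table followed an array of this series at r = 1, and 4 columns an array of another group. Changes in the value table therefore go with which arrays were put in which group. The cause of each other change below was not tested.

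The member median in R882H against EV was 0.24 in the value table and ran from 0.41 to 0.69 with 1 array left out. In WT against EV it was 0.0735 without number 3 of every group and -0.11 in the value table.

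Signs turned in R882H against EV as follows. Irgm2 was -0.010 with normexp, -0.081 with the array median, -0.23 without number 3 and -0.19 in the value table. The value table also turned Tgtp1 (-0.39), Procr (-0.18), Cxcr2 (0.025), S100a9 (0.78), Vwf (-0.16), Emcn (-0.24), Ifngr1 (0.32), Ifngr2 (0.058) and Jak1 (-0.24). Adgre1 was -0.19 with normexp and -0.16 with the mean over probes, Siglech -0.048 and Ciita -0.034 with the array median, Pax5 -0.19 with slide as a block and Ifngr1 0.045 without number 3.

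In R882H against WT the array median turned Irgm1 (-0.011) and Iigp1 (-0.085), slide as a block Irgm2 (0.082), omission of number 3 Irgm2 (0.081), and the value table Irgm2 (0.45), Iigp1 (-0.034) and Tgtp1 (-0.16). In WT against EV omission of number 3 turned Gbp2 (-0.0003), Irgm2 (-0.31) and Igtp (-0.13), normexp Gbp6 (-0.082), and the value table Gbp2 (-0.10), Irgm1 (-0.12), Irgm2 (-0.64), Igtp (-0.31) and Tgtp1 (-0.23).

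With 1 array left out, values that turned ranged in R882H against EV from -0.25 to 0.34 for Irgm2, -0.095 to 0.79 for Adgre1, -0.33 to 0.21 for Ifngr1 and -0.24 to 0.0029 for Ifngr2. They ranged in R882H against WT from -0.10 to 0.28 for Irgm1, -0.28 to 0.059 for Irgm2, -0.14 to 0.16 for Iigp1 and -0.21 to 0.52 for Tgtp1, and in WT against EV from -0.20 to 0.39 for Irgm2.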
